A study of Mus musculus with 7 samples.

Results

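Collagen chain genes are described here in cultured mouse neural stem cells of 3 genotypes. The members are the genes whose symbol is Col, a type number, a and a chain number. The rule found 41 of the 18145 genes in the deposited table, and all 41 had enough reads to be tested: 11 encode fibrillar chains, 7 chains of basement membranes and 23 chains of other classes. RNA of 7 libraries was sequenced, each from a separate line at passage 1 according to the design text: 3 wild-type lines (WT), 2 lines labelled Tet-TFoCa (TFoCa) and 2 labelled Tet-TMut (TMut). The design text spells the second genotype Tet-FoCa. The labels give no strain, allele, treatment or age, and nothing on how each mutant line was made. The series title sets hydroxymethylation of DNA against its formylation and carboxylation in these cells, but the step that each genotype alters is not stated in the labels. Levels are normalized counts, the read count of a gene divided by the size factor of its library, and are listed in replicate order. Changes are log2 fold changes ± standard error from limma on log2(normalized count + 1) over all 7 libraries, and a gene is said to rise or fall at an adjusted p under 0.05.

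Collagen chains wind around each other into a triple helix, and a collagen type is named after the chains that it joins. Fibrillar collagens (types I, II, III, V, XI, XXIV and XXVII) pack side by side into fibrils, while type IV forms the sheet-like network of basement membranes, to which types XV and XVIII attach. In the developing brain type IV lines the blood vessels and the outer surface, and fibrillar chains are made mostly by cells of the meninges and vessel walls. TET enzymes oxidise the methyl group of 5-methylcytosine, which in mammals lies mostly at CG dinucleotides (CpG sites).

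Reads in genes numbered 33340167 to 62545457 per library and, among the members, 59455 to 153992 for Col3a1 but 0 to 70 for Col6a5. In bulk RNA, fewer cells of a type and less RNA per cell cannot be told apart. The summed normalized counts of 12 neural stem cell markers were 187759 to 196086 in WT, 158215 to 167797 in TFoCa and 129427 to 154420 in TMut, with every marker above 0 in each library. The sums of 10 fibroblast and mesenchyme markers, none of them collagens and none at 0, were 18789 to 22576, 59755 to 70414 and 32244 to 50427. Those of the 4 smooth muscle markers in the table were 1115 to 1906, 2304 to 5630 and 22028 to 26768. They came mostly from Acta2, and Myocd, also listed, was absent. In TMut 3 of the 4 rose, where 18.4% of all genes did, and Myh11, at 2.43 to 36.0, passed no test. The sums of 7 endothelial markers were 1492 to 2172, 514 to 1490 and 1730 to 2580. Those of 6 epithelial markers were 2943 to 4905, 2482 to 3629 and 8580 to 19494, with Krt5 at 0 in TMut replicate 2. Those of 6 osteoblast markers were 2070 to 3332, 1675 to 3267 and 2387 to 3452, with Ibsp at 0 in WT replicate 2 and in TMut replicate 2. Sp7 of that list was also at 0 in TMut replicate 2. The part of such cells in the results below was not tested.

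The sequence before the start of 5 members is shown because the genotypes concern TET enzymes and because the calls of these genes held in every alternative analysis run for at least 1 comparison of a mutant with WT; they were chosen after their values were seen. Each line gives the 250 bases before the RefSeq start, 5′ to 3′ on the strand of the gene, with CpG sites in capitals. They are Col3a1 and Col28a1, which rose in both mutants, Col8a1, which rose in TFoCa, and Col15a1 and Col13a1, which fell in TMut. The windows are chr1:45311288-45311537 (plus strand), chr6:8192618-8192867 (minus), chr16:57754738-57754987 (minus), chr4:47207762-47208011 (plus) and chr10:61979109-61979358 (minus) of GRCm38.p6.
Col3a1: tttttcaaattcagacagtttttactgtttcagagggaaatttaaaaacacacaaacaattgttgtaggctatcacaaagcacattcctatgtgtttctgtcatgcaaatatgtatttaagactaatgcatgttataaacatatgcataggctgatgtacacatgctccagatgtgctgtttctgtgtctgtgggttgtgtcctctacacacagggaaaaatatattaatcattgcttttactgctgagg
Col28a1: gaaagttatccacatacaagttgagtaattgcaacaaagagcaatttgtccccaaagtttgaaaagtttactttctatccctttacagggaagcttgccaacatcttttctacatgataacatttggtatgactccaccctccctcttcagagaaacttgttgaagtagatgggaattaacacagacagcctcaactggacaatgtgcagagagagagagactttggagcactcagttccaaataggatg
Col8a1: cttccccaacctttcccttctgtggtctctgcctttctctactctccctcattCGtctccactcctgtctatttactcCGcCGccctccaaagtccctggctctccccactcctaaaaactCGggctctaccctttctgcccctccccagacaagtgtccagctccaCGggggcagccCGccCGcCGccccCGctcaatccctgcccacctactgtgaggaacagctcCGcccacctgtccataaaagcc
Col15a1: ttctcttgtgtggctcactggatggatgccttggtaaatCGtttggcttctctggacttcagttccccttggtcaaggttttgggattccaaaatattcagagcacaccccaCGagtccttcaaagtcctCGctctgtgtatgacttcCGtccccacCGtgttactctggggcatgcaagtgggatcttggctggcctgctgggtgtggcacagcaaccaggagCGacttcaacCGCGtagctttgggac
Col13a1: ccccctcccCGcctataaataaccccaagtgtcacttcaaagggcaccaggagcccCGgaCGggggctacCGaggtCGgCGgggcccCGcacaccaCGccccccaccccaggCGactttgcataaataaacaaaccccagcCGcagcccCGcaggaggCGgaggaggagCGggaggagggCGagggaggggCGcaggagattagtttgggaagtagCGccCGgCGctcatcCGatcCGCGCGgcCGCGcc
The windows of Col3a1 and Col28a1 hold 0 CpG sites, that of Col15a1 holds 8, that of Col8a1 10 and that of Col13a1 24. Other members with calls that held as well are not shown. Of these, Col6a1, Col16a1 and Col25a1, which rose in TFoCa, hold 3, 21 and 18 CpG sites. Col4a1 and Col4a5, which fell in TMut, hold 31 and 10. Col12a1, Col14a1, Col22a1 and Col26a1 had no RefSeq promoter entry. No methylation was measured in the files used here, so the sequences show where CpG sites lie and not whether they are methylated.

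Collagen chain genes were mostly higher in TFoCa than in WT, and in TMut both directions occurred about as often as among all genes. In TFoCa, 14 of the 41 rose and 0 fell, where 5.25% of all tested genes rose and 3.52% fell. The median log2 fold change of the 41 was 0.87, and that of all genes was -0.02. For the count of 0, limma gave 2 falls at an unadjusted p under 0.05, edgeR called 0, and DESeq2 and limma-voom called 1 each, Col13a1. In TMut, 9 rose and 11 fell, where 18.4% of all genes rose and 20.4% fell, with medians of 0.25 for the 41 and 0.00 for all genes. Both comparisons use the same WT libraries, so their values are set side by side and are not independent. Of the members, 7 rose in both (Col3a1, Col6a1, Col8a2, Col12a1, Col14a1, Col16a1 and Col28a1), and 1, Col1a1, rose in TFoCa and fell in TMut.

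The libraries themselves show the same split. Both TFoCa libraries lay above all 3 WT libraries for 22 members and below for 2, against 21.0% and 24.2% of all genes. Both TMut libraries lay above WT for 17 members and below for 13, against 33.4% and 33.6% of all genes. Of the 14 TFoCa calls, 7 held in every alternative run, and the others depended on which libraries were fitted. Without WT replicates 1, 2 and 3, 8, 7 and 8 members rose, all of them among the 14. Without TFoCa replicate 1 or replicate 2 the count was 15 each time, of which 10 were among the 14, so that 4 calls were lost and 5 gained. The count of rises in TMut was 5 without WT replicate 2, and that of falls was 6 without WT replicate 3 and 7 without TMut replicate 2. Fewer genes were called in the whole table as well when a WT library was left out.

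**Figure D1:**
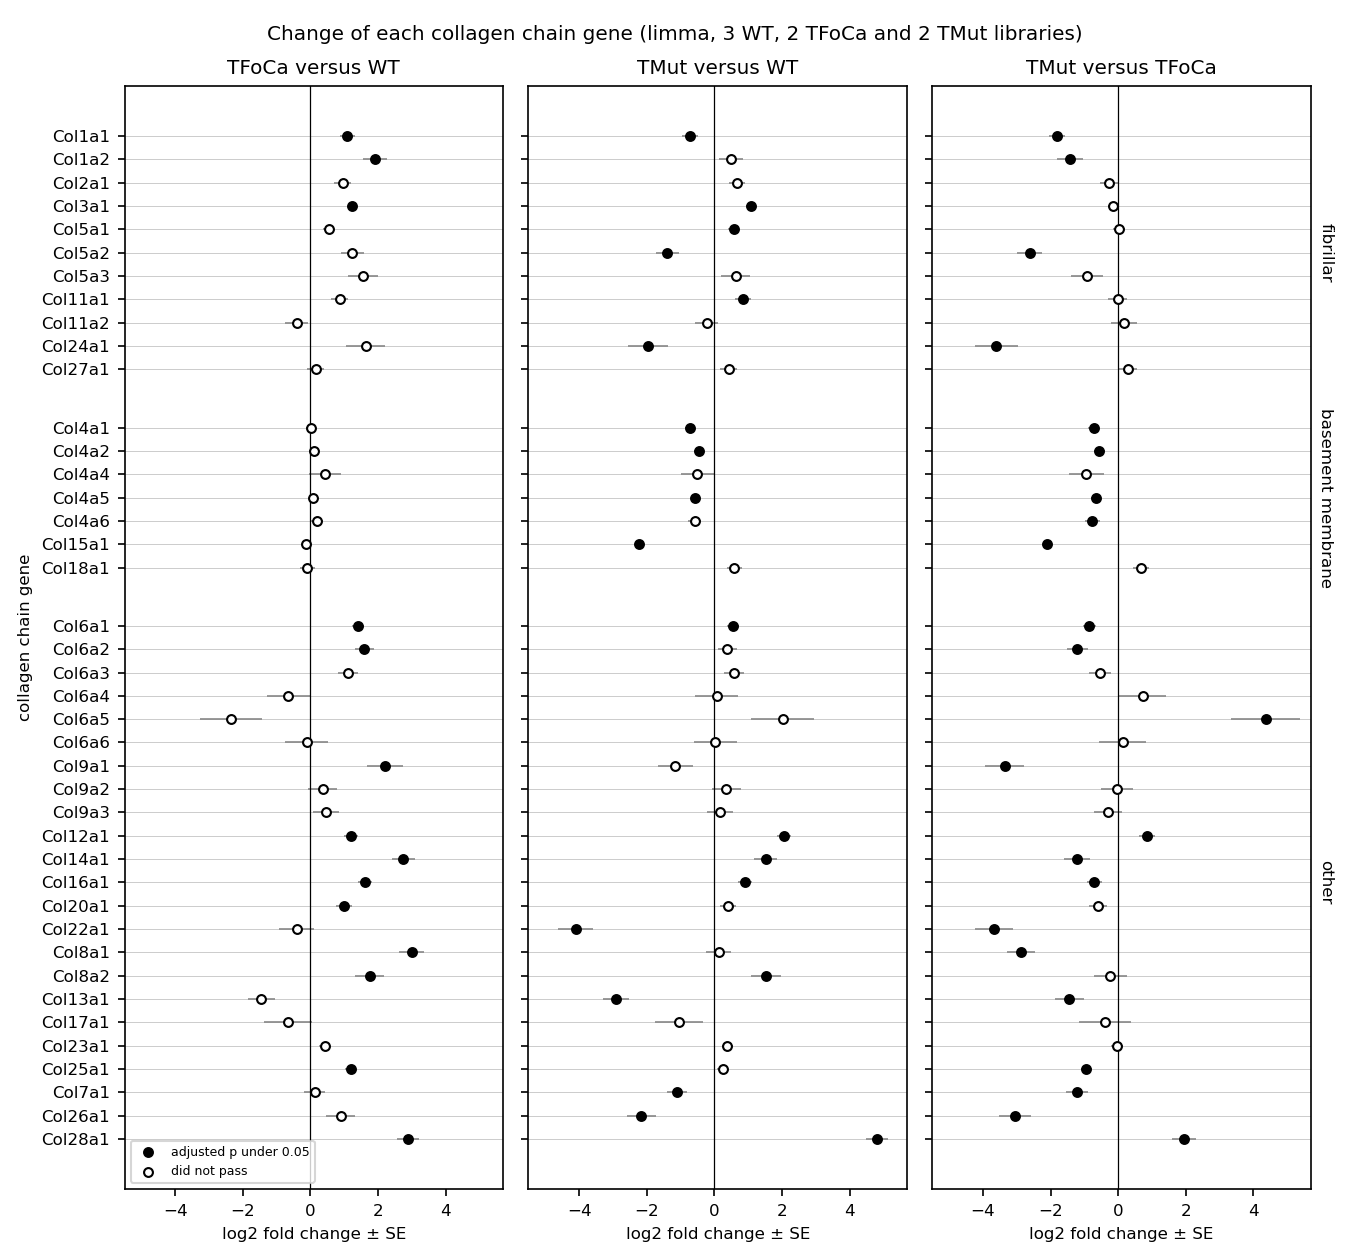
Log2 fold change of each of the 41 collagen chain genes (x axis, log2 units, bars ± 1 standard error) in the 3 comparisons, ordered by class; filled points passed an adjusted p under 0.05. Filled points lie to the right of 0 in TFoCa versus WT (14 genes) and on both sides in TMut versus WT (9 and 11).

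By class, the rises in TFoCa fell among fibrillar chains and the other classes. Of the fibrillar chains 3 of 11 rose in TFoCa (median 1.09), and 3 rose and 3 fell in TMut (median 0.49). With DESeq2, Col2a1, Col5a1, Col5a2, Col5a3, Col11a1 and Col24a1 rose in TFoCa as well. Of the basement membrane chains 0 of 7 changed in TFoCa (median 0.08), and 4 fell and 0 rose in TMut (median -0.58). In the other classes 11 of 23 rose in TFoCa (median 0.99), and 6 rose and 4 fell in TMut (median 0.35). Set against the shares of all genes given above, the TMut counts of the fibrillar and the other classes lie near 18.4% rising and 20.4% falling. No test compared the classes with each other.

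Collagen chains took up more of the RNA in TFoCa. They made up 0.927%, 0.933% and 0.907% of all reads in genes in WT, 1.62% and 1.63% in TFoCa, and 1.14% and 0.895% in TMut. The TFoCa libraries were above all WT libraries, while the TMut libraries lay on either side of WT. Divided by length (the longest coding transcript of each gene in GENCODE M21), fibrillar chains were 42.10%, 44.17% and 44.60% of the summed collagen level in WT, 55.45% and 58.49% in TFoCa, and 58.79% and 54.15% in TMut. Basement membrane chains were 45.31%, 40.31% and 37.15% in WT, 26.14% and 18.90% in TFoCa, and 25.45% and 30.70% in TMut. Fibrillar chains thus outweighed basement membrane chains in every mutant library, and in WT the order of the classes differed between libraries. Within the fibrillar share, Col3a1 alone held 18.24%, 20.04% and 19.83% in WT, 23.62% and 26.03% in TFoCa, and 33.11% and 36.23% in TMut. Col1a1 held 11.48% to 11.81% in WT, 12.89% and 13.91% in TFoCa, and 7.22% and 4.93% in TMut. The higher fibrillar share in TMut thus lay largely in Col3a1 and was not shared by Col1a1.

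**Figure D2:**
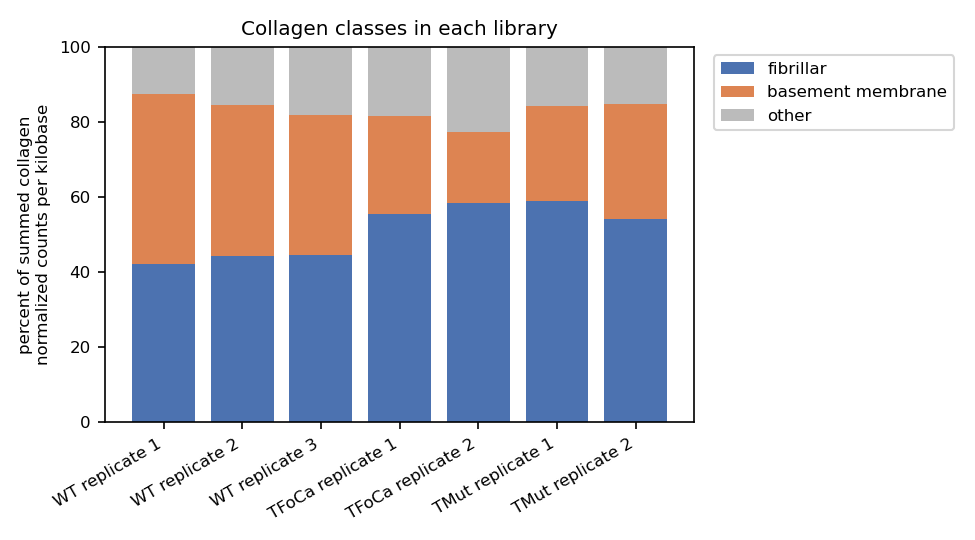
Share of the summed collagen level per kilobase (y axis, percent) held by fibrillar, basement membrane and other chains in each of the 7 libraries (x axis, bars). The fibrillar share is 42.10% to 44.60% in WT and 54.15% to 58.79% in the mutant libraries.

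Per kilobase of transcript, Col3a1 was the highest member in each genotype, with mean levels of 12081 normalized counts per kilobase in WT, 28626 in TFoCa and 25602 in TMut. It encodes the chain of type III collagen, found in vessel walls and meninges and known as a ligand of the receptor Adgrg1 on neural precursors. In WT the next were Col4a1 (9992), Col1a1 (7236), Col4a2 (6342), Col18a1 (5881) and Col1a2 (3910). The ranges of these neighbours over the 3 libraries did not overlap except between Col4a2 and Col18a1. In TFoCa the order was Col3a1, Col1a1 (15445), Col1a2 (14683), Col4a1 (10142) and Col6a1 (9586), where the pairs Col1a1 and Col1a2, and Col4a1 and Col6a1, overlapped. In TMut Col18a1 (8718) came second, before Col1a2 (6187), Col4a1 (6065), Col6a1 (5311), Col4a2 (4636) and Col1a1 (4607), and each of these overlapped its neighbour. Col1a1 thus stood below Col3a1 and Col4a1 alone in WT and lower in the order in TMut.

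**Figure D3:**
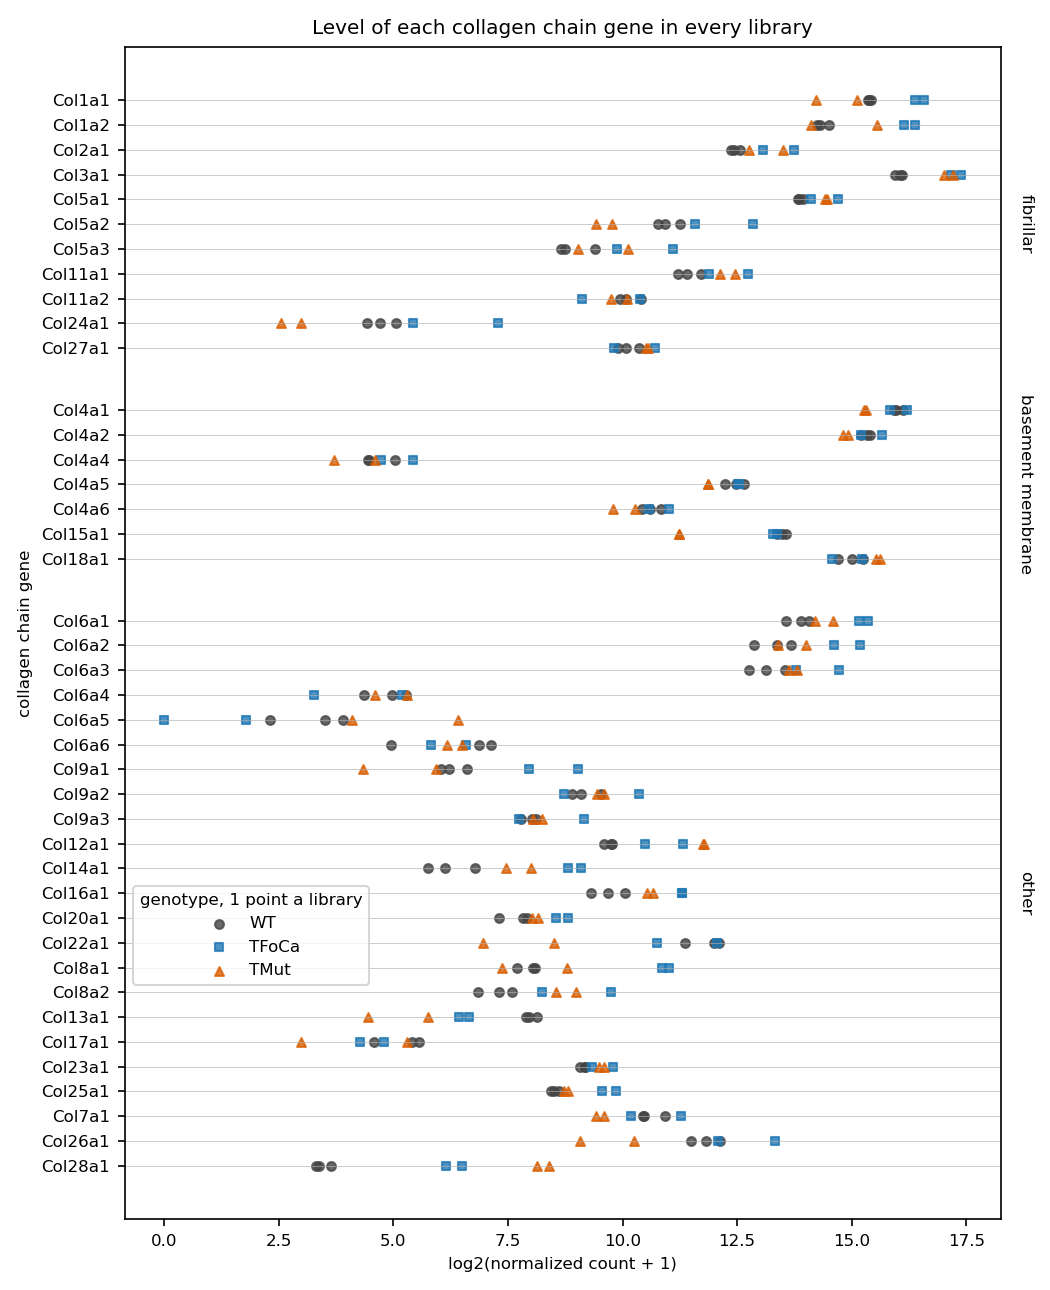
Level of each collagen chain gene in the 7 libraries (x axis, log2 of the normalized count plus 1, not divided by length), 1 point a library, marked by genotype and ordered by class. Points of Col3a1 and Col4a1 lie far to the right in all libraries; those of Col15a1 show both TMut libraries to the left of the rest.

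The chains of type I collagen, the main collagen of bone, skin and tendon, both rose in TFoCa, and Col1a1 fell in TMut. Col1a1 had 42183, 44222 and 42318 normalized counts in WT, 85789 and 97393 in TFoCa, and 35453 and 19191 in TMut. Both TFoCa libraries were above and both TMut libraries below WT, and TMut replicate 2 was the lowest of all. The change was 1.09 ± 0.23 in TFoCa (2.13-fold, adjusted p = 0.029) and -0.72 ± 0.23 in TMut (adjusted p = 0.042). Its partner Col1a2 had 19289, 20324 and 23125 in WT, 71990 and 85055 in TFoCa, and 48411 and 17764 in TMut. The TMut libraries lay on either side of WT. Col1a2 rose by 1.91 ± 0.36 in TFoCa (3.75-fold, adjusted p = 0.019) and had 0.49 ± 0.36 in TMut (adjusted p = 0.31). The type I calls in TFoCa were lost when libraries were left out, although the rises kept their size (1.0 to 1.18 for Col1a1 and 1.79 to 2.03 for Col1a2). There, Col1a1 lost its call without any 1 of the WT or TFoCa libraries (adjusted p from 0.054 to 0.095), and Col1a2 without WT replicate 1, 2 or 3 or TFoCa replicate 2 (0.058 to 0.068). In TMut, Col1a1 lost its call with edgeR (adjusted p = 0.069), without WT replicate 1, 2 or 3 (0.084, 0.108 and 0.101) and without TMut replicate 2 (-0.27, adjusted p = 0.239), and Col1a2 was called without TMut replicate 2 (1.22, adjusted p = 0.0043).

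Col3a1 rose in both mutants, with a fitted fold of 2.37 in TFoCa and 2.12 in TMut. The WT libraries held 62864, 70399 and 68395 normalized counts, the TFoCa libraries 147502 and 171050 and the TMut libraries 152575 and 132324. Every mutant library was above every WT library, and the ranges of the mutants overlapped. It rose by 1.24 ± 0.14 in TFoCa (adjusted p = 0.0038) and by 1.08 ± 0.14 in TMut (adjusted p = 0.001). These calls held in every alternative, with values of 1.14 to 1.35 and 0.98 to 1.18 when each library was left out.

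Type V collagen starts and limits the width of fibrils, and its chains did not move together. Col5a1 had 15688, 14683 and 14586 normalized counts in WT, 26529 and 17782 in TFoCa, and 21826 and 22597 in TMut. All mutant libraries were above WT. It rose in TMut (0.57 ± 0.16, adjusted p = 0.026), with 0.54 ± 0.16 in TFoCa (adjusted p = 0.08). Col5a2 had 1762, 1948 and 2439 in WT, 3061 and 7376 in TFoCa, and 872 and 687 in TMut. The TFoCa libraries were above WT and far from each other, and the TMut libraries were below WT. Col5a2 fell in TMut (-1.39 ± 0.34, 2.62-fold lower, adjusted p = 0.014) and had 1.23 ± 0.34 in TFoCa (adjusted p = 0.064). Col5a3, with 401, 430 and 679 in WT, 947 and 2179 in TFoCa and 1110 and 519 in TMut, passed neither test (1.55 ± 0.44, adjusted p = 0.068, and 0.63 ± 0.44, adjusted p = 0.288). In TMut the Col5a1 call was lost without WT replicate 2 or 3 or either TMut library (adjusted p 0.079 to 0.119), and the Col5a2 call without WT replicate 3 (0.051) or TMut replicate 2 (0.091). In TFoCa, Col5a1 was called without replicate 2 (0.82), and Col5a2 (1.86) and Col5a3 (2.15) without replicate 1. DESeq2 called Col5a1, Col5a2 and Col5a3 higher in TFoCa (adjusted p of 0.017, 0.00076 and 0.0013), and edgeR called Col5a2 (0.042).

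Types II and XI are the collagens of cartilage fibrils and are also made by early neural and notochordal tissue. Col2a1 had 5263, 6096 and 5539 normalized counts in WT, 13689 and 8567 in TFoCa, and 11566 and 6965 in TMut. Every mutant library was above WT, with a wide gap within each mutant, and no test was passed (0.95 ± 0.25, adjusted p = 0.057, and 0.67 ± 0.25, adjusted p = 0.066). Col2a1 was called with edgeR and DESeq2 in both comparisons, without TFoCa replicate 2 (1.28) or either TMut library (0.95) in TFoCa, and without TMut replicate 2 (1.04) or either TFoCa library (0.67) in TMut. Col11a1 had 3337, 2729 and 2364 in WT, 6824 and 3813 in TFoCa, and 5644 and 4469 in TMut. It rose in TMut (0.85 ± 0.25, adjusted p = 0.032), with 0.87 ± 0.25 in TFoCa (adjusted p = 0.073). All mutant libraries were above WT, and DESeq2 called Col11a1 in TFoCa as well (0.92, adjusted p = 0.006). The TMut call was lost without WT replicate 2 or 3 or either TMut library (adjusted p 0.064 to 0.153), and TFoCa was called without its replicate 2 (1.29, adjusted p = 0.017).

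The chondrocyte markers in the table, 6 of 8 listed, had summed normalized counts of 4438 to 5081 in WT, 4654 to 6182 in TFoCa and 2298 to 2498 in TMut, mostly from Sox9, with Hapln1 at 0 in WT replicate 3. Their part in the levels of the type II and XI chains was not tested. Col11a2 had 1360, 1076 and 979 in WT, 1327 and 550 in TFoCa, and 855 and 1100 in TMut, with the groups overlapping. Col27a1, a further cartilage chain, had 1315, 1072 and 948 in WT, 1663 and 898 in TFoCa, and 1455 and 1506 in TMut. The TMut libraries of Col27a1 were above WT, and neither gene passed a test against WT. Without TFoCa replicate 1 Col11a2 was called lower in TFoCa than in WT (-1.03, adjusted p = 0.04).

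Col24a1, a minor fibrillar chain, was rare and the lowest fibrillar member per kilobase. The libraries held 25.1, 20.3 and 32.2 normalized counts in WT, 42.1 and 155 in TFoCa, and 6.91 and 4.80 in TMut, from 32, 32 and 28, 44 and 127, and 6 and 4 reads. TFoCa was above and TMut below WT in every library, and TFoCa replicate 2 stood far above replicate 1. It fell in TMut (-1.96 ± 0.59, adjusted p = 0.034) and had 1.63 ± 0.59 in TFoCa (adjusted p = 0.133). DESeq2 called it higher in TFoCa (1.93, adjusted p = 0.028). The TMut call was lost without any 1 of the WT or TMut libraries (adjusted p 0.065 to 0.14), with a pseudocount of 8 (-1.28, 0.071), with edgeR (0.052) and with limma-voom (0.155), and Col24a1 in TFoCa was called without replicate 1 (2.56, adjusted p = 0.034).

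Of the 10 fibroblast and mesenchyme markers, 6 rose and 0 fell in TFoCa (median 1.29), and 4 rose and 2 fell in TMut (median 0.28), against 5.25% and 3.52% of all genes in TFoCa and 18.4% and 20.4% in TMut. Beside the fibrillar chains, their summed level was higher in every mutant library than in every WT library, and the part of such cells in these changes was not tested.

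Type IV collagen, the network of every basement membrane, passed no test in TFoCa and was lower in TMut. Col4a1 had 71764, 64526 and 62004 normalized counts in WT, 75380 and 58804 in TFoCa, and 40476 and 39757 in TMut. The TFoCa libraries spanned those of WT, and both TMut libraries were below all others. Col4a1 fell in TMut by 0.72 ± 0.14 log2 units (1.64-fold lower, adjusted p = 0.0058), a call kept in every alternative (-0.76 to -0.66 when a library was left out). In TFoCa its value was 0.01 ± 0.14 (adjusted p = 0.968). Col4a2, which joins Col4a1 in most basement membranes, had 43568, 41182 and 37975 in WT, 51509 and 37683 in TFoCa, and 30927 and 28881 in TMut. The order of the genotypes was the same, and Col4a2 fell in TMut (-0.45 ± 0.15, adjusted p = 0.046). That call is close to the threshold: it was lost without any 1 of the WT or TMut libraries (adjusted p 0.081 to 0.199), with a pseudocount of 8 (0.05), with TMM normalization (0.061), with edgeR (0.064) and with limma-voom (0.053).

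The chains Col4a5 and Col4a6, neighbours on the X chromosome that are found together in some basement membranes, had the same fitted value in TMut. Col4a5 had 6391, 5695 and 4857 normalized counts in WT, 5954 and 5878 in TFoCa, and 3747 in each TMut library. It fell in TMut (-0.58 ± 0.12, adjusted p = 0.0079), again in every alternative run (-0.69 to -0.49 without a library). Col4a6 had 1825, 1544 and 1377 in WT, 1535 and 2055 in TFoCa, and 1243 and 887 in TMut. Both TMut libraries of Col4a6 were below WT, with a value that missed the threshold (-0.58 ± 0.20, adjusted p = 0.053). It was called with DESeq2 (0.031), without TMut replicate 1 (-0.82, 0.031) and without TFoCa replicate 1 (0.037) or 2 (0.038). Col4a4, a chain of the kidney basement membrane, was rare at 12 to 42.1 normalized counts and passed no test.

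Col15a1 was the basement membrane chain that fell most in TMut, and Col18a1, its close relative, did not fall. Both belong to the multiplexins, collagens that carry sugar chains and bind basement membranes, and Col18a1 is the source of the fragment endostatin. Col15a1 had 11425, 12085 and 10625 normalized counts in WT, 10020 and 10635 in TFoCa, and 2404 and 2408 in TMut. The TMut libraries were nearly equal and far below the others. The change in TMut was -2.24 ± 0.09 (4.72-fold lower, adjusted p = 4.3e-05), with a range of -2.29 to -2.19 when each library was left out, while TFoCa had -0.14 ± 0.09 (adjusted p = 0.4). Col18a1 had 39190, 32861 and 26661 in WT, 38423 and 24182 in TFoCa, and 50025 and 47525 in TMut. Both TMut libraries were above all others, with 0.59 ± 0.22 in TMut (adjusted p = 0.072), and it was called with DESeq2 (0.038) and without TFoCa replicate 1 or 2 (0.024 each).

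Beside the basement membrane chains, 2 of the 7 endothelial markers rose and 1 fell in TMut, and 0 rose and 1 fell in TFoCa. Of 6 pericyte markers 2 rose and 1 fell in TMut and 2 rose in TFoCa, with Abcc9 at 0 in TMut replicate 1. Over all genes 18.4% rose and 20.4% fell in TMut, and 5.25% and 3.52% in TFoCa, and in lists of 6 and 7 genes the TMut counts do not stand apart from those shares. Their part in the levels of these chains was not tested.

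Type VI collagen forms beaded filaments around cells, and its main chains were higher in TFoCa. Col6a1 had 12206, 15159 and 17258 normalized counts in WT, 36809 and 41793 in TFoCa, and 24740 and 18808 in TMut. The groups did not overlap, with TFoCa highest and WT lowest. Col6a1 rose by 1.41 ± 0.18 in TFoCa (2.66-fold, adjusted p = 0.0056) and by 0.55 ± 0.18 in TMut (adjusted p = 0.042). Col6a2 had 7533, 10652 and 13130 in WT, 25202 and 37210 in TFoCa, and 16411 and 10734 in TMut. It rose in TFoCa (1.59 ± 0.28, adjusted p = 0.016) and overlapped WT in TMut (0.38 ± 0.28, adjusted p = 0.315). Col6a3 had 6890, 9018 and 12030 in WT, 14149 and 27205 in TFoCa, and 14427 and 12744 in TMut, and every mutant library was above WT with no test passed (1.11 ± 0.30, adjusted p = 0.061, and 0.58 ± 0.30, adjusted p = 0.165). The Col6a1 call in TFoCa held in every alternative and that in TMut was lost without WT replicate 1 (0.095) or 2 (0.091) or TMut replicate 1 (0.231). Col6a2 in TFoCa lost its call without WT replicate 2 (0.055) or TFoCa replicate 2 (0.056), and Col6a3 gained one without TFoCa replicate 1 (1.58, adjusted p = 0.022) and with edgeR and DESeq2.

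The further chains of this class were rare. Col6a4 ranged from 8.62 to 38.4 normalized counts and Col6a6 from 29.8 to 138, with overlapping groups. Col6a5 had 5, 22 and 9 reads in WT, 0 and 2 in TFoCa, and 14 and 70 in TMut, too few for a fold to be given, and passed no test against WT. It was called higher in TMut than in WT without TMut replicate 1 and with DESeq2 (adjusted p of 0.049 each).

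FACIT collagens do not form fibrils of their own but sit on the surface of others. Of the 8 chains, 5 rose in TFoCa, and 3 rose and 1 fell in TMut. Over all genes 5.25% rose in TFoCa, and 18.4% rose and 20.4% fell in TMut. In a list of 8 genes the TMut counts do not stand apart from those shares. Col12a1, which coats type I fibrils in dense tissue, had 770, 862 and 870 normalized counts in WT, 2557 and 1429 in TFoCa, and 3483 and 3458 in TMut. The groups did not overlap, and TMut was highest. It rose by 1.20 ± 0.22 in TFoCa (adjusted p = 0.018) and by 2.06 ± 0.22 in TMut (4.16-fold, adjusted p = 0.00048). Its relative Col14a1 had 52.6, 68.5 and 108 in WT, 546 and 445 in TFoCa, and 175 and 255 in TMut. TFoCa was highest here. Col14a1 rose by 2.74 ± 0.34 in TFoCa (6.67-fold, adjusted p = 0.0056) and by 1.52 ± 0.34 in TMut (2.86-fold, adjusted p = 0.011). Col16a1 had 633, 822 and 1058 in WT, 2529 and 2530 in TFoCa, and 1479 and 1617 in TMut. It rose in both, by 1.62 ± 0.20 (adjusted p = 0.0053) and 0.91 ± 0.20 (adjusted p = 0.0093), with the genotypes in the same order as for Col14a1.

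The TFoCa calls of Col14a1 and Col16a1 and the TMut call of Col12a1 held in every alternative. Col12a1 in TFoCa lost its call without WT replicate 1, 2 or 3 (adjusted p 0.058 to 0.065), and had 0.78 without TFoCa replicate 1 and 1.62 without replicate 2. In TMut, Col14a1 (1.25, adjusted p = 0.076) and Col16a1 (0.85, adjusted p = 0.06) lost theirs without TMut replicate 2.

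Col9a1, a chain of the type IX collagen of cartilage fibrils, had 64.3, 96.3 and 73.6 normalized counts in WT, 522 and 248 in TFoCa, and 59.9 and 19.2 in TMut. TFoCa was above and TMut below WT in each library. It rose in TFoCa (2.21 ± 0.53, 4.63-fold, adjusted p = 0.042) and had -1.15 ± 0.53 in TMut (adjusted p = 0.119). The call in TFoCa was lost without WT replicate 1, 2 or 3 (adjusted p 0.095 to 0.126) and without TFoCa replicate 1 (1.68, 0.139), and Col9a1 was called lower in TMut without its replicate 1 (-1.95, 0.023). The chains that join it, Col9a2 at 424 to 1321 and Col9a3 at 212 to 574, passed no test. In TFoCa both were called without replicate 2 (1.19 each, adjusted p of 0.034 for Col9a2 and 0.026 for Col9a3). Col20a1 had 158, 228 and 242 in WT, 373 and 447 in TFoCa, and 260 and 283 in TMut, with every mutant library above WT. It rose in TFoCa (0.99 ± 0.24, adjusted p = 0.043), a call lost when any 1 of the 7 libraries was left out (adjusted p 0.052 to 0.126).

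Col22a1, a FACIT of tissue junctions such as that of muscle and tendon, had the largest fall of the 41 in TMut. The libraries held 4424, 4112 and 2614 normalized counts in WT, 4282 and 1728 in TFoCa, and 362 and 122 in TMut. TFoCa overlapped WT, and both TMut libraries were far below, TMut replicate 2 the lower. The change in TMut was -4.10 ± 0.52 (17.1-fold lower, adjusted p = 0.00093), and it was -4.88 without TMut replicate 1 and -3.32 without TMut replicate 2. TFoCa had -0.41 ± 0.52 (adjusted p = 0.667).

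The short chain collagens of type VIII, made by endothelial and smooth muscle cells and in the cornea, were both higher in TFoCa. Col8a1 had 272, 208 and 262 normalized counts in WT, 2069 and 1857 in TFoCa, and 440 and 163 in TMut. The TFoCa libraries stood far above all others and the TMut libraries lay on either side of WT. Col8a1 rose in TFoCa by 2.99 ± 0.37, which is 7.95-fold (adjusted p = 0.0056), the largest rise of the 41 there, and had 0.13 ± 0.37 in TMut (adjusted p = 0.814). Col8a2 had 191, 156 and 114 in WT, 854 and 302 in TFoCa, and 371 and 508 in TMut, with all mutant libraries above WT. It rose in TFoCa (1.75 ± 0.44, adjusted p = 0.049) and in TMut (1.52 ± 0.44, adjusted p = 0.027). The Col8a1 call in TFoCa held in every alternative (2.87 to 3.07 without a library), and Col8a1 was called higher in TMut without its replicate 2 (0.84, adjusted p = 0.034). The Col8a2 call in TFoCa was lost without any 1 library other than TFoCa replicate 2 (adjusted p 0.057 to 0.141), with a value of 1.0 without TFoCa replicate 1 and 2.50 without replicate 2, and with limma-voom (0.053). In TMut the Col8a2 call was lost without WT replicate 2 or 3 or either TMut library (0.055 to 0.146).

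Among the transmembrane collagens, which span the cell membrane, Col13a1 fell in TMut and Col25a1 rose in TFoCa. Col13a1, known for its place at the neuromuscular junction, had 247, 279 and 238 normalized counts in WT, 99.6 and 85.2 in TFoCa, and 20.7 and 52.8 in TMut. The groups did not overlap, with WT highest and TMut lowest. It fell in TMut (-2.90 ± 0.39, 7.46-fold lower, adjusted p = 0.0012) and had -1.45 ± 0.39 in TFoCa (adjusted p = 0.06). Without TMut replicate 1 the TMut value was -2.24 and without replicate 2 it was -3.55, called each time, and Col13a1 was called lower in TFoCa without either TMut library (adjusted p of 0.014 and 0.016), with a pseudocount of 8 (0.046), with DESeq2 (0.001) and with limma-voom (0.028). Col25a1, needed for the growth of motor nerves into muscle, had 361, 345 and 388 in WT, 930 and 745 in TFoCa, and 445 and 421 in TMut. It rose in TFoCa by 1.19 ± 0.16 (2.28-fold, adjusted p = 0.0071), in every alternative, and had 0.25 ± 0.16 in TMut (adjusted p = 0.251). Col23a1, at 536 to 881, and Col17a1, at 6.91 to 46.3, passed no test; Col23a1 was called in TFoCa without replicate 1 (0.65, adjusted p = 0.046) and in TMut without TFoCa replicate 1 (0.035) or 2 (0.037), and Col17a1 in TMut without replicate 2 (-2.20, 0.039).

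Beside type VIII and the transmembrane chains, 4 of 4 skeletal muscle markers in the table rose in TFoCa, where 5.25% of all genes did. Of the 5 listed, Myf5 was absent. In TMut 0 of the 4 were called, with 2 values above 0 and 2 below, where 18.4% of all genes rose and 20.4% fell. Their sums were 1074 to 1966 in WT, 4777 to 12230 in TFoCa and 2123 to 2395 in TMut. Their part, and that of the smooth muscle markers given above, was not tested.

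Of the remaining chains, Col28a1 rose most of the 41 in TMut. Type XXVIII collagen is known from the basement membrane around Schwann cells of peripheral nerve. Its libraries held 9.41, 8.87 and 11.5 normalized counts in WT, 69.9 and 88.9 in TFoCa, and 334 and 279 in TMut, from 12, 14 and 10 reads, 73 in each TFoCa library, and 290 and 232 reads. The 3 genotypes did not overlap. The changes were 2.88 ± 0.33 in TFoCa (7.34-fold, adjusted p = 0.0039) and 4.81 ± 0.33 in TMut (28.1-fold, adjusted p = 0.00012), and both calls held in every alternative, with 2.71 to 3.05 and 4.68 to 4.95 when a library was left out. As the WT level is 10 to 14 reads, these folds depend on few reads. The sums of 6 neural crest markers were 1965 to 2224 in WT, 3483 to 3952 in TFoCa and 5652 to 7372 in TMut. They lay in the same order as Col28a1 and came mostly from Ets1. Of the 6, 2 rose in TFoCa and 2 in TMut, Ets1 and Snai2 each time. Over all genes 5.25% rose in TFoCa and 18.4% in TMut. The part of these 6 markers was not tested. Of these, Sox10, a defining gene of neural crest and Schwann cells, had 7.85 to 29.2 in WT, 32.6 and 48.7 in TFoCa and 36.9 and 60.0 in TMut, and passed no test.

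Col7a1, the anchoring fibril of skin, had 1388, 1415 and 1942 normalized counts in WT, 2478 and 1159 in TFoCa, and 681 and 776 in TMut. It fell in TMut (-1.10 ± 0.30, adjusted p = 0.024), and TFoCa spanned WT (0.12 ± 0.30, adjusted p = 0.852). Col26a1, whose product is little studied, had 2895, 3619 and 4460 in WT, 4350 and 10232 in TFoCa, and 1216 and 534 in TMut. It fell in TMut (-2.16 ± 0.43, 4.46-fold lower, adjusted p = 0.0065), with -1.57 without TMut replicate 2 and -2.75 without replicate 1, called each time. In TFoCa it had 0.89 ± 0.43 (adjusted p = 0.246), and 1 library was far above the other. The Col7a1 call was lost without WT replicate 3 (0.078) or TMut replicate 1 (0.1) or 2 (0.075) and with limma-voom (0.051).

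The mutants were also compared with each other. In TMut against TFoCa, 3 members rose and 20 fell, where 17.3% of all genes rose and 18.5% fell. The median was -0.66, and that of all genes 0.00. Both TMut libraries lay below both TFoCa libraries for 22 members and above for 4, against 33.5% and 33.9% of all genes. These values use the same libraries as the comparisons with WT and add no independent data. Without TMut replicate 2 the counts were 1 and 12, and without TFoCa replicate 1 there were 5 rises.

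Among fibrillar chains, Col1a1 (-1.81 ± 0.25, adjusted p = 0.0028), Col1a2 (-1.42 ± 0.39, adjusted p = 0.027), Col5a2 (-2.62 ± 0.37, adjusted p = 0.0028) and Col24a1 (-3.60 ± 0.65, adjusted p = 0.006) were lower in TMut than in TFoCa. Col3a1 had -0.16 ± 0.15 (adjusted p = 0.441), Col5a1 0.03 ± 0.18 (adjusted p = 0.903) and Col11a1 -0.02 ± 0.28 (adjusted p = 0.959). Chains that passed the test thus stood beside chains with values near 0 within the class. The sizes depend on single libraries: without TMut replicates 1 and 2 Col1a1 had -2.25 and -1.37 and Col1a2 -2.14 and -0.69, and without TFoCa replicates 1 and 2 Col5a2 had -3.25 and -1.98 and Col24a1 -4.52 and -2.67, each still called. Col1a2 lost its call without TFoCa replicate 1 (0.056) or 2 (0.088).

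Of the basement membrane chains 5 of 7 fell and 0 rose, where 18.5% of all genes fell and 17.3% rose. The falls were those of Col15a1 (-2.10 ± 0.10, adjusted p = 0.0009), Col4a6 (-0.76 ± 0.22, adjusted p = 0.031), Col4a1 (-0.73 ± 0.15, adjusted p = 0.01), Col4a5 (-0.66 ± 0.13, adjusted p = 0.009) and Col4a2 (-0.56 ± 0.16, adjusted p = 0.032). Col18a1 had 0.68 ± 0.24 (adjusted p = 0.064) and was called without TFoCa replicate 1 (1.01, 0.016) and with DESeq2 (0.034). The Col4a1 call was lost without TMut replicate 2 (0.058). Those of Col4a2 (0.056 to 0.146, without WT replicate 2 or 3, TFoCa replicate 1 or either TMut library) and Col4a6 (0.057 to 0.171, without WT replicate 2, TFoCa replicate 2 or TMut replicate 2) were lost more often.

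In the other classes 11 of 23 fell and 3 rose, where 18.5% of all genes fell and 17.3% rose. The count of rises lies near its share. Col22a1 (-3.68 ± 0.57, adjusted p = 0.0037), Col9a1 (-3.36 ± 0.58, adjusted p = 0.0049), Col26a1 (-3.05 ± 0.47, adjusted p = 0.0037) and Col8a1 (-2.87 ± 0.41, adjusted p = 0.0029) were the most reduced. Col7a1 (-1.22), Col13a1 (-1.45), Col14a1 (-1.22), Col6a2 (-1.21), Col25a1 (-0.94), Col6a1 (-0.86) and Col16a1 (-0.71) were the other falls. The rises were those of Col28a1 (1.94 ± 0.36, adjusted p = 0.0064), Col12a1 (0.86 ± 0.24, adjusted p = 0.028) and Col6a5 (adjusted p = 0.014). Without TMut replicates 1 and 2, Col22a1 had -4.46 and -2.91, Col9a1 -4.16 and -2.57, Col8a1 -3.58 and -2.15, and Col26a1 -3.64 and -2.45; without TFoCa replicates 1 and 2, Col22a1 had -3.03 and -4.34, and Col26a1 -3.66 and -2.43. Calls were lost for Col13a1 without any 1 library other than TMut replicate 2 (-0.79 without TMut replicate 1), for Col14a1 and Col16a1 without WT replicate 2 or any 1 mutant library, for Col7a1 without TFoCa replicate 1 (-0.67) or either TMut library, for Col6a1 without TMut replicate 2, for Col6a2 without TFoCa replicate 2 or TMut replicate 2, for Col12a1 without either TMut library, and for Col6a5 without TFoCa replicate 1 or TMut replicate 2.

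Chains that share a triple helix need not share a change. The ratio of Col1a1 to Col1a2 per kilobase of transcript was 1.97, 1.96 and 1.65 in WT, 1.07 and 1.03 in TFoCa, and 0.66 and 0.97 in TMut. Each mutant library was below each WT library, so Col1a2 stood closer to Col1a1, or above it, in the mutants. The ratio of Col4a1 to Col4a2 was 1.61, 1.53 and 1.59 in WT, 1.43 and 1.52 in TFoCa, and 1.28 and 1.34 in TMut, with the 3 genotypes not overlapping. That of Col6a1 to Col6a2 was 1.49 to 1.84 in WT, 1.27 and 1.66 in TFoCa, and 1.71 and 1.99 in TMut, with overlap. The ratio of Col5a1 to Col5a2 was 4.71 to 7.02 in WT, 6.83 and 1.90 in TFoCa, and 19.7 and 25.9 in TMut. That of Col8a1 to Col8a2 was 1.13 to 1.95 in WT, 2.05 and 5.22 in TFoCa, and 1.01 and 0.27 in TMut, so that the genotypes did not overlap. Both ratios varied widely within TFoCa, and the latter within TMut as well. That of Col4a5 to Col4a6 was 3.56 to 3.75 in WT, 3.94 and 2.91 in TFoCa, and 3.07 and 4.30 in TMut, and that of Col6a3 to Col6a2 was 0.39 to 0.42, 0.26 and 0.34, and 0.40 and 0.55. These ratios were not tested.

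**Figure D4:**
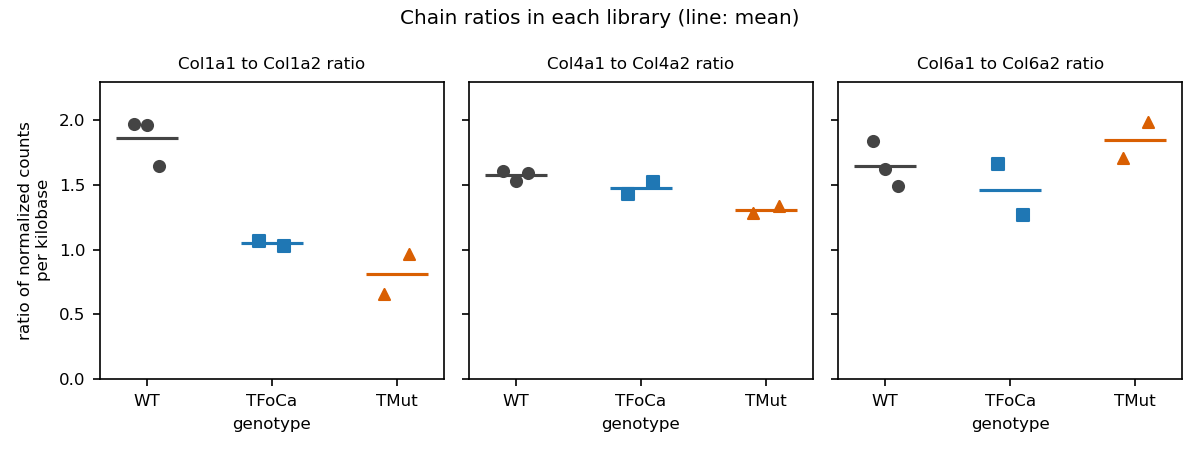
Ratio of the levels per kilobase (y axis) of Col1a1 to Col1a2, Col4a1 to Col4a2 and Col6a1 to Col6a2, 1 point a library, by genotype (x axis), with a line at the mean. The Col1a1 to Col1a2 ratio is 1.65 to 1.97 in WT and 0.66 to 1.07 in the mutant libraries.

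Some chain genes are neighbours in the genome with no other protein-coding gene between them in RefSeq (GRCm38.p6), and neighbours did not always move together. Col3a1 and Col5a2 lie next to each other, and in TMut the former rose by 1.08 while the latter fell by 1.39. Col4a1 and Col4a2 are transcribed away from each other from a shared start region (-0.72 and -0.45 in TMut), and Col4a6 and Col4a5 are also neighbours (-0.58 and -0.58). Col6a2 and Col6a1 had 1.59 and 1.41 in TFoCa. The first bases of Col4a1 and Col4a2 in RefSeq overlap by 22 bases, and reads there cannot be assigned if counting ignored strand, which is not given in the sources used here.

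RefSeq promoters matched 33 of the 41 members, with 36 windows in all. Col1a1, Col2a1, Col5a2, Col9a3, Col12a1, Col14a1, Col22a1 and Col26a1 had no entry. The members held a median of 9.5 CpG sites in 250 bases, against 6 in the 32851 windows of the table, and a ratio of observed to expected CpG of 0.42 against 0.37. The motif GGGCGG, searched on both strands, was in 61.1% of the member windows and 32.7% of all windows. CCAAT was in 36.1% against 33.8%, and TATAAA in 11.1% against 12.4%, as in those of Col3a1 and Col13a1 shown above. GGGCGG contains a CpG site, so it and the count of CpG sites are not independent. Windows with no CpG site numbered 4, of Col3a1, Col9a1 and Col28a1, where 7.9% of all windows have none. By call, the median number of CpG sites was 6 in 13 windows of 11 genes that rose in TFoCa and 10 in the 23 windows of the others. It was 7 in 7 windows of genes that rose in TMut, 10 in 7 of genes that fell and 9.5 in the remaining 22. The ranges were wide and overlapped, from 0 to 24 for genes that rose in TFoCa, and no test was made.

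Collagen chains are hydroxylated, folded and exported before they assemble. Of 18 genes of collagen modification and folding, 8 rose and 0 fell in TFoCa (median 0.67), and 12 rose and 0 fell in TMut (median 0.85), where 5.25% and 3.52% of all genes rose and fell in TFoCa and 18.4% and 20.4% in TMut. No test compared this list, or those that follow, with other genes. Fkbp10, a collagen chaperone, had 2900, 2911 and 3105 normalized counts in WT, 7244 and 7534 in TFoCa, and 7638 and 6835 in TMut, and rose by 1.31 ± 0.09 (adjusted p = 0.0012) and 1.28 ± 0.09 (adjusted p = 0.00014). P3h4, part of a lysyl hydroxylase complex, rose by 1.15 ± 0.10 (adjusted p = 0.0021) and 1.37 ± 0.10 (adjusted p = 0.00015). The lysyl hydroxylase Plod2 rose by 0.96 ± 0.12 in TFoCa (adjusted p = 0.005), and Crtap, a partner of prolyl 3-hydroxylase, by 1.52 ± 0.13 in TMut (adjusted p = 0.0002). The mutant libraries of Fkbp10 were all above WT and overlapped each other.

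Of 9 genes of procollagen export from the endoplasmic reticulum, 3 rose in TFoCa (median 0.21) and 6 in TMut (median 0.52), with 0 falls called. The coat subunit gene Sec13, with -0.19, and Tmem39a, with -0.02, were the 2 with values below 0 in TFoCa. They include Creb3l1, a transcription factor for secretory genes (1.20 ± 0.14, adjusted p = 0.0049, and 1.73 ± 0.14, adjusted p = 0.0002), and the coat subunit Sec24d (0.93 ± 0.14, adjusted p = 0.0099, and 1.51 ± 0.14, adjusted p = 0.00028). Of 8 genes that cut or help to cut propeptides, 1 rose in TFoCa, and 4 rose and 2 fell in TMut. Over all genes 5.25% rose and 3.52% fell in TFoCa, and 18.4% rose and 20.4% fell in TMut. In a list of 8 genes, 1 rise in TFoCa and 2 falls in TMut do not stand apart from those shares. Adamts14, which removes the N-terminal propeptide, rose by 0.91 ± 0.16 in TFoCa (adjusted p = 0.014) and 3.19 ± 0.16 in TMut (adjusted p = 4.7e-05). Bmp1, which removes the C-terminal propeptide, rose by 2.00 ± 0.24 in TMut (adjusted p = 0.00082) and had 0.68 ± 0.24 in TFoCa (adjusted p = 0.132). The TFoCa call of Adamts14 was lost without WT replicate 1 (0.05) or 3 (0.054).

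**Figure D5:**
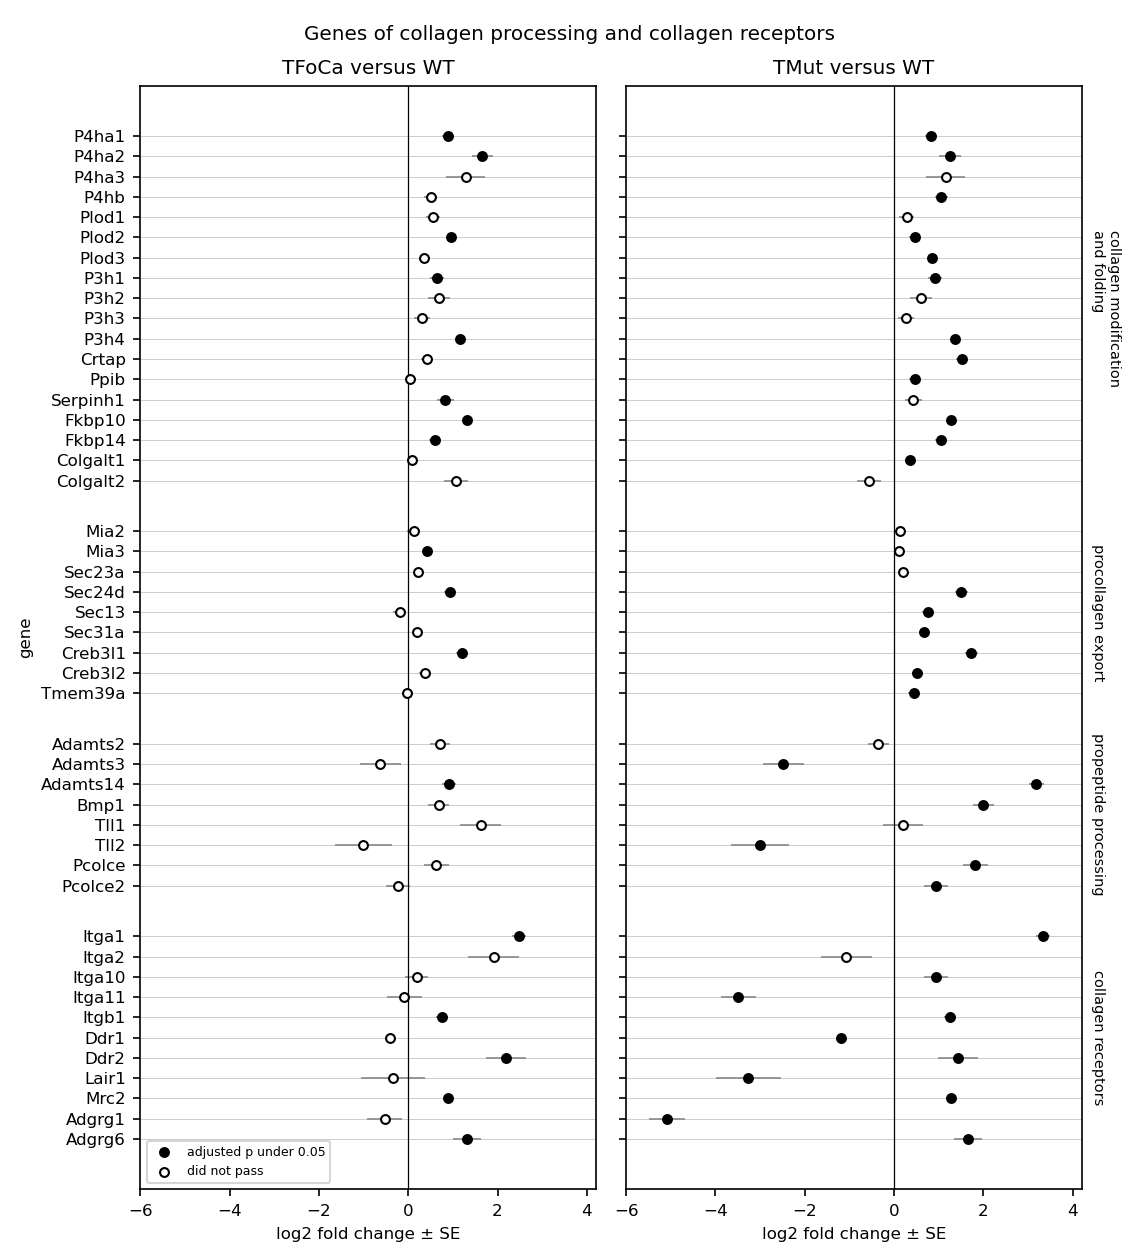
Log2 fold change (x axis, bars ± 1 standard error) of genes of collagen modification and folding, procollagen export, propeptide processing and collagen receptors in TFoCa and TMut, each against WT; filled points passed an adjusted p under 0.05. In the first list 8 of 18 genes rose in TFoCa and 12 in TMut, and the receptors lie on both sides of 0 in TMut.

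Of 11 collagen receptor genes in the table, 5 rose and 0 fell in TFoCa, where 5.25% and 3.52% of all genes did. In TMut 6 rose and 4 fell, where 18.4% and 20.4% of all genes did. Itga1, a collagen-binding integrin subunit, rose by 2.48 ± 0.16 in TFoCa (adjusted p = 0.0012) and 3.33 ± 0.16 in TMut (adjusted p = 4.7e-05). Of the other such subunits, Itga11 fell in TMut (-3.49 ± 0.39, adjusted p = 0.00052) and Itga10 rose there (0.94 ± 0.26, adjusted p = 0.024). Itga2 passed no test against WT. The receptor Ddr1 fell in TMut (-1.18 ± 0.10, adjusted p = 0.00022). Mrc2, which takes up collagen fragments, rose by 0.90 ± 0.10 (adjusted p = 0.0039) and 1.27 ± 0.10 (adjusted p = 0.00018). Adgrg1, the receptor of the Col3a1 product on neural precursors, had 12264, 13992 and 13999 normalized counts in WT, 9330 and 9175 in TFoCa, and 707 and 221 in TMut. It fell in TMut (-5.08 ± 0.40, adjusted p = 0.00017), with -5.92 without TMut replicate 1 and -4.24 without replicate 2, and had -0.53 ± 0.40 in TFoCa (adjusted p = 0.456). In TMut the ligand gene Col3a1 was thus above WT in both libraries where the receptor gene was below.

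Of 16 partners of type IV in basement membranes, 7 rose and 0 fell in TFoCa, where 5.25% and 3.52% of all genes did. In TMut 6 rose and 3 fell, where 18.4% and 20.4% of all genes did, so the count of falls lies near its share. Hspg2, which encodes perlecan, rose by 0.77 ± 0.15 in TFoCa (adjusted p = 0.023) and 1.73 ± 0.15 in TMut (adjusted p = 0.00024). The laminin genes Lama2 (2.14 ± 0.23, adjusted p = 0.0036) and Lamc1 (0.79 ± 0.09, adjusted p = 0.0036) rose in TFoCa, and Lamc3 fell in TMut (-6.13 ± 0.61, adjusted p = 0.00037). The Hspg2 call in TFoCa was lost without WT replicate 1, 2 or 3 or TFoCa replicate 1 (adjusted p 0.059 to 0.085). Of 29 listed genes with a collagen-like domain that are not collagen chains, 17 are in the table; 3 rose and 0 fell in TFoCa, led by C1qtnf7 (2.71 ± 0.43, adjusted p = 0.011), and 3 rose and 3 fell in TMut, led by C1qtnf4 (-1.93 ± 0.20, adjusted p = 0.0004). The TMut counts of this last list are near the shares of all genes (18.4% and 20.4%). In TMut against TFoCa the counts of rises and falls were 3 and 2 of 18 for modification and folding, 5 and 0 of 9 for export, 4 and 2 of 8 for propeptides, 3 and 5 of 11 for receptors, 2 and 8 of 16 for basement membrane partners, and 2 and 5 of 17 for collagen-like domains. Over all genes 17.3% rose and 18.5% fell there, and several of these counts, such as those for modification and folding, lie near those shares.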

How the data were processed

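Gene expression was measured by RNA sequencing in 7 mouse neural stem cell lines. The deposited table holds DESeq2-normalized counts (signal), which the authors made with STAR 2.7.3a, Trim Galore 0.6.5, SAMtools, featureCounts and DESeq2 on build mm39, per the submitters' processing notes; the annotation and the strand setting of the counting are not given in the sources used here. Whole reads were recovered from these values within a tolerance of 0.001 read. Of counts of 1 to 20 reads, 70.29% to 79.32% were even. The rarest gene of the table has 71 reads over the 7 libraries.

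Genes at 10 or more in at least 2 libraries, 18134 of 18145, were fitted on log2(normalized count + 1) with limma 3.58.1 (R 4.3.3) with an intensity trend, all genotypes in 1 model that leaves 4 residual degrees of freedom, and adjusted by Benjamini-Hochberg over all genes. Fold changes are on that scale and understate those of low genes. The test was tried on simulated data first. As the design text names separate lines, replicates are lines; the labels name no batch. Alternatives were a pseudocount of 8, no filter, a mean of 50 or more, TMM, edgeR 4.0.16, DESeq2 1.42.0, limma-voom, a replicate block, only the 2 genotypes compared, a minimum log2 change of 1 and leaving out each library. The excess of even counts would arise if both mates were counted, and precision of the count models may then be overstated. Libraries of equal replicate number were not treated as pairs: their deviations from the means of their groups had correlations of 0.0192 to 0.185.

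Members, classes and lists were chosen with earlier results of these data known. Members called in at least 1 comparison, or with a mean of 1000 or more in a genotype, were named with values by library, and up to 3 genes of each of the 6 partner lists and each comparison, by adjusted p; members called only with a library left out or by another tool are named beside them. Lengths come from the longest coding transcript in GENCODE M21 and promoters from RefSeq (GRCm38.p6), since no genome of the authors' build was used here. Ratios, shares and promoter features were not tested.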

Additional observations from a re-analysis of the deposited data

How the results depend on the processing

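Of the called members, 7 of 14 in TFoCa versus WT, 9 of 20 in TMut versus WT and 11 of 23 in TMut versus TFoCa kept their call in every alternative run; Col24a1 was not tested at a mean of 50 or more. Over 123 member results, 54 of 1953 values changed sign, in 30 results, and 0 of these were called in either fit. The count of 14 rises in TFoCa was 8 with the replicate block and 7 to 15 when a library was left out. The count of 0 falls in TFoCa was 1 with a pseudocount of 8, DESeq2, limma-voom or only the 2 genotypes compared, and 0 to 1 when a library was left out. In TMut, the 9 rises were 5 at a minimum log2 change of 1 and 5 to 12 without a library, and the 11 falls were 6 with the replicate block, 7 at a minimum log2 change of 1 and 6 to 12 without a library. In TMut versus TFoCa, the 3 rises were 1 to 5 without a library, and the 20 falls were 13 at a minimum log2 change of 1 and 12 to 19 without a library. A minimum log2 change can only lower a count, and fewer samples are fitted when a library is left out; the other causes were not tested. With the replicate block, type I collagen lost its calls in TFoCa (Col1a1 adjusted p = 0.104, Col1a2 0.065), and so did Col8a2, Col9a1, Col12a1 and Col20a1. The ratio of Col1a1 to Col1a2 without division by length was 2.06 in WT and 1.17 in TFoCa. The median of all genes moved by at most 0.04 under TMM, edgeR, DESeq2 and limma-voom. Each mutant group has 2 lines, so the error rests mostly on the spread pooled over the genotypes, and genes of few reads, such as Col6a5, Col24a1 and Col28a1 in WT, are the least certain.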
